A study of Mus musculus with 6 samples.

Results

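Expression of 10 macrophage genes, Csf1r, Adgre1, Cd14, Ptprc, Tyrobp, Cd68, Lyz2, C1qa, C1qb and C1qc, was followed in mouse heart cells of a co-culture study. The genes were chosen by name, as genes that mark macrophages, with earlier results of these data known. All 10 were found among the 27179 genes of the bulk count table, and all 10 were measured on both single-cell chips. Immature cardiomyocytes (imCMs) of newborn C57BL/6 mice were grown for a few days with cardiac fibroblasts taken from newborn (NFs) or adult (AFs) animals, to ask how the age of the fibroblasts affects the imCMs. Bulk RNA-Seq gave 2 libraries of imCMs grown with neonatal fibroblasts (imCM-NF) and 2 of imCMs grown with adult fibroblasts (imCM-AF), with totals from 9278909 to 12088577 counts. Single cells were sequenced on 2 nanowell chips, 1 library labelled cardiomyocytes and 1 labelled fibroblasts. The study counts fewer co-cultured cells than these chips hold wells, so not every well holds a cell of its co-cultures. Both kinds of cell were primary cells: fibroblasts were passaged to raise their purity before use, cells carried a dye and were sorted for RNA-Seq, and the AF co-cultures were started with a larger number of fibroblasts for each imCM than the NF co-cultures. The labels do not say whether the 2 libraries of a group came from separate cultures, so p values measure only the spread between these libraries, which may be technical.

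Macrophages are phagocytes of the myeloid line that live in the heart from before birth. They depend on the CSF1 receptor, which binds CSF1 made by fibroblasts and other stromal cells. They take up dying cells and debris, degrade them in lysosomes, and are a main source of C1q, the protein that starts the classical complement cascade. C1q is built from 3 different chains, and the genes C1qa, C1qc and C1qb lie side by side on chromosome 4 (GRCm38), at chr4:136895916-136898844, chr4:136889801-136892936 and chr4:136880126-136886200.

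Bases upstream of 4 members are shown because C1qb and C1qc both had their lower values in imCM-AF, while Lyz2 and Cd68, the most abundant members per length, had log2 fold changes of opposite sign (-0.53 and 0.23, neither of them called). The sequences are those of RefSeq (GRCm38.p6), 5′ to 3′ on the minus strand on which all 4 genes lie, and each stops before any annotated exon. The C1qb and Cd68 stretches reach the gene start, while for C1qc and Lyz2 the bases nearest the start are left out, since an annotated exon lies there. Capitals mark the PU box, GAGGAA or its reverse complement TTCCTC, the core of the sequence bound by PU.1, a transcription factor of myeloid cells.
C1qb, chr4:136886201-136886450: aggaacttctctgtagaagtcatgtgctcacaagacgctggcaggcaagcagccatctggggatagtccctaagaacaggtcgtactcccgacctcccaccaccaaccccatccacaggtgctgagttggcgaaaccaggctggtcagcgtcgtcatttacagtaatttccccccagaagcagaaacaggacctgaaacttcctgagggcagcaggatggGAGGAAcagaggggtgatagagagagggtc
C1qc, chr4:136893066-136893164: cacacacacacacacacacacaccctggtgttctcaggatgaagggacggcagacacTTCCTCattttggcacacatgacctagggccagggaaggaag
Lyz2, chr10:117282322-117282522: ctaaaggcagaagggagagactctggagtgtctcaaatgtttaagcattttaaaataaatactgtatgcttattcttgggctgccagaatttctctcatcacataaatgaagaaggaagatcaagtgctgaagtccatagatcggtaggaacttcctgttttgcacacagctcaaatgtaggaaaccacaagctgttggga
Cd68, chr11:69666171-69666420: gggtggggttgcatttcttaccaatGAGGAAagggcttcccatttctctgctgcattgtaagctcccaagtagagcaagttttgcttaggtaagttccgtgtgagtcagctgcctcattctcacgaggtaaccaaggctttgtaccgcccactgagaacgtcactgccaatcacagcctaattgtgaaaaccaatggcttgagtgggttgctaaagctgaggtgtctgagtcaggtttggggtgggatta
Promoters were matched for 5 of the 10 members. C1qb, C1qc and Cd68 each held 1 PU box in the stretch shown and Lyz2 held 0. In the 250 bases before the start, the letters occurred on either strand in 23.3% of the 32851 promoters of the table. A match is a description of letters and not a binding site.

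In the bulk libraries the macrophage genes did not move as 1 block. C1qa and C1qb fell in imCM-AF, by log2 fold changes of -2.29 and -1.60, Lyz2 was lower by a smaller step, and Cd14 and Ptprc had their higher values in imCM-AF. Csf1r and Cd68 overlapped between the groups. Values are given as CPM, counts scaled to a common library total with TMM factors. Calls required a log2 fold change beyond 0.58 in either direction together with an adjusted p below 0.05, from edgeR's quasi-likelihood test with Benjamini-Hochberg adjustment over all 14041 genes that passed a filter of CPM over 1 in at least 2 libraries. Of the 10 members 9 passed the filter, and Ptprc is given from the same fit without a filter. C1qa and C1qb passed it through the imCM-NF libraries alone, and C1qc through those and imCM-AF replicate 2. The number of C1q chains among the tested members is therefore no support for a direction. In bulk RNA, fewer cells of a type and less RNA per cell cannot be told apart.

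**Figure D1:**
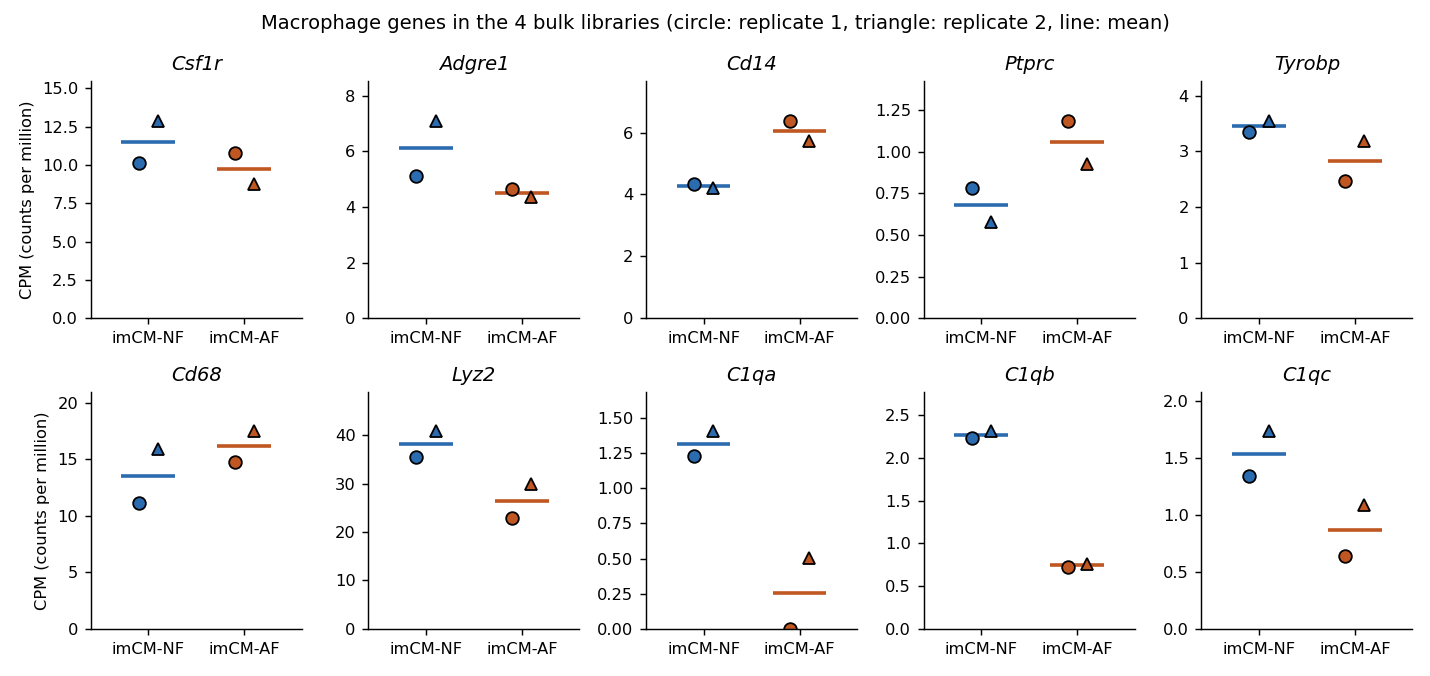
CPM of each macrophage gene in the 4 bulk libraries, each panel with its own axis from 0. Blue marks imCM-NF, orange imCM-AF, circles replicate 1, triangles replicate 2 and lines the mean of 2 libraries. C1qb lies at 2.23 and 2.31 in imCM-NF and at 0.730 and 0.756 in imCM-AF.

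Csf1r encodes the receptor through which CSF1 keeps macrophages alive. Csf1r stood at 10.1 and 12.9 CPM in imCM-NF, compared with 10.8 and 8.74 CPM in imCM-AF. The groups overlapped, and the log2 fold change (imCM-AF over imCM-NF) was -0.26 (SE 0.18, 95% interval -0.64 to 0.12, adjusted p = 0.306). It came to -0.05 without imCM-NF replicate 2 and to -0.41 without imCM-NF replicate 1; leaving out an imCM-AF library gave -0.40 for replicate 1 and -0.10 for replicate 2, so its size depended on which library of either group was kept. The row of Csf1r overlaps that of a microRNA gene and a predicted gene, whose reads cannot be told apart here.

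Adgre1 (chr17:57358581-57483529) encodes F4/80, the classical surface protein of mouse macrophages. It stood at 5.13 and 7.10 CPM in imCM-NF, compared with 4.65 and 4.37 CPM in imCM-AF. The groups did not overlap, but by a small gap, and the log2 fold change of -0.46 (SE 0.23, 95% interval -0.95 to 0.02) was not called (adjusted p = 0.147). Without imCM-NF replicate 2, the highest library, it shrank to -0.18. Predicted genes overlap the Adgre1 row as well.

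Cd14, on chromosome 18 like Csf1r, encodes a co-receptor for bacterial lipopolysaccharide. Its values were 4.35 and 4.21 CPM in imCM-NF, compared with 6.39 and 5.71 CPM in imCM-AF. Both imCM-AF libraries lay above both imCM-NF libraries, and the 2 libraries of a group were close. The log2 fold change was 0.50 (SE 0.22, 95% interval 0.03 to 0.97) with an adjusted p of 0.104, and leaving out any 1 library kept it between 0.43 and 0.59. Cd14 was thus steady over the replicates without passing the threshold.

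Ptprc (chr1:138062859-138175756) encodes CD45, the phosphatase on nearly all white blood cells. It was the scarcest member per length, with 7 and 7 counts in imCM-NF and 13 and 11 counts in imCM-AF. These counts correspond to 0.780 and 0.578 CPM in imCM-NF and to 1.19 and 0.924 CPM in imCM-AF. The groups did not overlap, yet the interval of the log2 fold change of 0.64 (SE 0.58) ran from -0.49 to 1.77 (adjusted p = 0.521 in the unfiltered fit). A difference in Ptprc was not detectable at this depth.

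Tyrobp (chr7:30413782-30417582) encodes DAP12, the signalling adaptor that pairs with TREM2 and related receptors. Tyrobp stood at 3.34 and 3.55 CPM in imCM-NF, compared with 2.46 and 3.19 CPM in imCM-AF. All imCM-AF values were below the imCM-NF values, with the nearest pair almost touching. The log2 fold change was -0.28 (SE 0.27, 95% interval -0.86 to 0.29, adjusted p = 0.47). It fell to -0.10 without imCM-AF replicate 1, so that library set most of the difference.

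Cd68 (chr11:69664213-69666170) encodes macrosialin, a heavily glycosylated protein of the lysosome membrane. Its values were 11.2 and 15.9 CPM in imCM-NF, compared with 14.8 and 17.5 CPM in imCM-AF. The groups overlapped, and the log2 fold change of 0.23 (SE 0.17, 95% interval -0.12 to 0.59) was not called (adjusted p = 0.323). It was 0.54 without imCM-NF replicate 2 and 0.02 without imCM-NF replicate 1. The 2 imCM-NF libraries thus differed from each other, by 1.43-fold, by more than the group means did.

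Lyz2 (chr10:117277541-117282272) encodes lysozyme, which cleaves bacterial cell walls, and was the most abundant member per length. It stood at 35.4 and 40.8 CPM in imCM-NF, compared with 22.9 and 29.8 CPM in imCM-AF. Both imCM-AF libraries were lower, the log2 fold change was -0.53 (SE 0.13, 95% interval -0.80 to -0.27), and the adjusted p was 0.00527. The change passed the test but missed the fold threshold, so Lyz2 was not called. Leaving out any 1 library gave -0.35 to -0.73, and Lyz2 was called without imCM-NF replicate 1 (adjusted p = 0.0115) and without imCM-AF replicate 2 (adjusted p = 0.000124), while the edgeR test was not passed without imCM-NF replicate 2 (adjusted p = 0.132) or without imCM-AF replicate 1 (adjusted p = 0.0813).

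The C1q chains had the most negative fitted log2 fold changes of the members. C1qb held 20 and 28 counts in imCM-NF against 8 and 9 in imCM-AF, which came to 2.23 and 2.31 CPM against 0.730 and 0.756 CPM. The libraries of a group were nearly equal, within 1.04-fold in each. C1qb was called lower, with a log2 fold change of -1.60 (SE 0.38, 95% interval -2.40 to -0.80, adjusted p = 0.00512), and without any 1 library the unfiltered fit gave -1.57 to -1.63.

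C1qa held 11 and 17 counts in imCM-NF and 0 and 6 counts in imCM-AF, or 1.23 and 1.404 CPM against 0 and 0.504 CPM. It was called lower, with a log2 fold change of -2.29 (SE 0.65, 95% interval -3.66 to -0.92, adjusted p = 0.0153). Here imCM-AF replicate 1 decided the call: without it the log2 fold change was -1.36 (adjusted p = 0.126). In the unfiltered fit the call was also lost without imCM-NF replicate 2 (-2.18, adjusted p = 0.0838). Against that library alone, with a floor of 3 counts for its 0, the mean of imCM-NF was at least 4.8-fold higher.

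C1qc held 12 and 21 counts in imCM-NF and 7 and 13 in imCM-AF, or 1.34 and 1.74 CPM against 0.639 and 1.09 CPM. The groups did not overlap, and the log2 fold change of -0.83 (SE 0.42, 95% interval -1.71 to 0.05) was not called (adjusted p = 0.15). Dropping imCM-AF replicate 1 brought it to -0.50 and dropping imCM-AF replicate 2 to -1.27. Summed over the 3 chains, the libraries held 43 and 66 counts in imCM-NF and 15 and 28 in imCM-AF, so that all of these values rest on few reads.

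Of the 9 tested members 2 were called lower, C1qa and C1qb, against 4.99% of all tested genes, and 0 were called higher, against 6.15%. With the DESeq2 Wald test neither call held (adjusted p = 0.098 for C1qa and 0.0722 for C1qb), while limma-voom kept both. At an unadjusted p under 0.05 there were 4 members in edgeR, Cd14, Lyz2, C1qa and C1qb, and 39.3% of all genes. The groups did not overlap in the lower direction for 6 tested members, against 33.8% of all genes, and in the higher direction for 1, Cd14, against 32.1%. Since so many genes of the whole table separated in each direction, the number of members that separated is no result about them. The median log2 fold change of the tested members was -0.46 and that of all genes 0.001. Without imCM-NF replicate 2 the median was -0.18, over the 7 members that still passed the filter, C1qa and C1qb having dropped out.

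**Figure D2:**
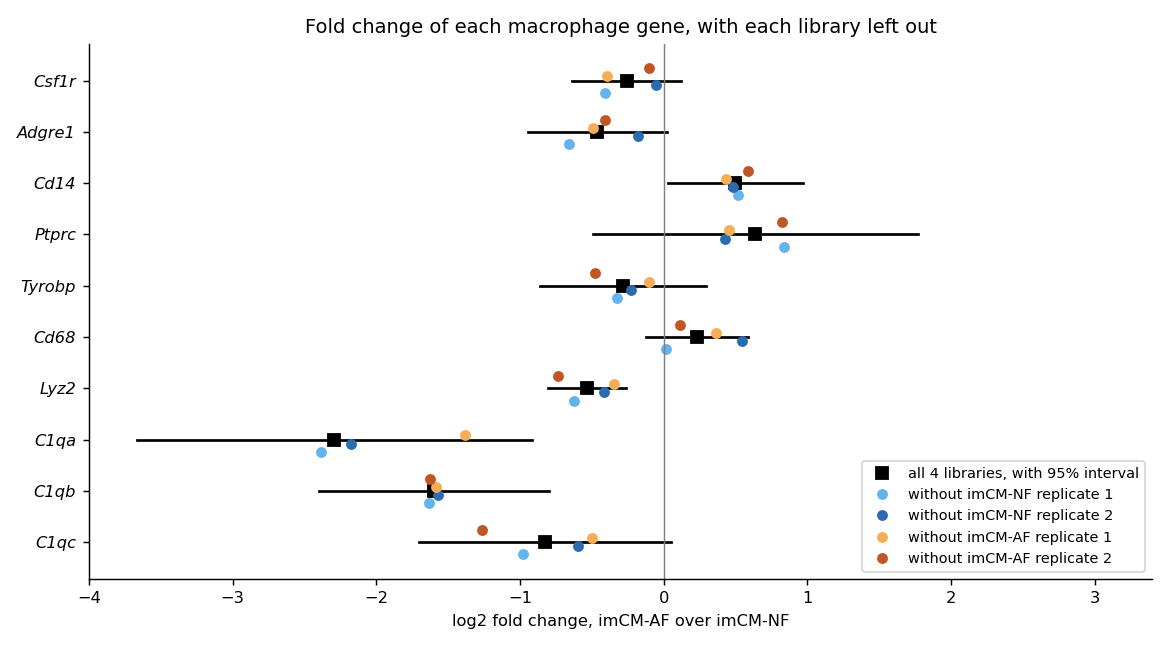
Log2 fold change of each macrophage gene, imCM-AF over imCM-NF. Squares and bars give the fit to 4 libraries with its 95% interval, and dots the same fit with 1 library left out (without a filter for Ptprc, C1qa and C1qb); for C1qa no dot is drawn without imCM-AF replicate 2, since the remaining imCM-AF library held 0 counts. The dots of C1qb and Cd14 lie close together, while those of C1qa, C1qc and Cd68 are spread.

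To compare levels between genes, CPM was divided by the length of the annotated exons in kilobases. The order of the means over 4 libraries was Lyz2 (24.5), Cd68 (11.8), Tyrobp (4.71), Cd14 (2.98), Csf1r (1.84), Adgre1 (1.64), C1qb (1.39), C1qa (0.754), C1qc (0.622) and Ptprc (0.0474). Lyz2 and Cd68 kept the first and second place in each library. Further down, Csf1r stood above Adgre1 in all 4 libraries, though by less than either varied between libraries. C1qa stood above C1qc in imCM-NF and below it in imCM-AF, and C1qb was above Adgre1 in imCM-NF replicate 1 only.

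The other genes of the same pathways, chosen by role and without the members, split in direction. Of 13 genes of the CSF1 receptor pathway 1 was called lower, Inpp5d, which encodes the phosphatase SHIP1, at 7.80 and 9.67 CPM in imCM-NF, compared with 5.202 and 6.39 CPM in imCM-AF (log2 fold change -0.60, adjusted p = 0.0369). Of 10 tested C1 proteases, inhibitors, C1q receptors and further complement genes 5 were called higher and 0 lower. These act with or after C1q, yet stood opposite to the C1q chains. C2, a serine protease of the classical pathway, rose from 1.56 and 1.404 CPM to 4.84 and 4.87 CPM (log2 fold change 1.71, adjusted p = 0.000387). C1s1, a protease of the C1 complex, rose from 8.36 and 10.99 CPM to 18.6 and 18.4 CPM (0.92, adjusted p = 0.000481). C4b, which C1s cleaves, had a log2 fold change of 0.86 (adjusted p = 0.0169), and C3, the central complement protein, one of 0.82 (adjusted p = 1.18e-05).

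No gene was called in either direction among the 8 tested receptors and the kinase that work with TYROBP or the Fc receptor gamma chain, of which 4 had an unadjusted p under 0.05 in edgeR. The 7 tested partners of CD14 gave no call either, with 1 such gene. Of 12 tested CD45 substrates and leukocyte actin genes 2 were called higher and 1 lower. Cd53, a tetraspanin of white blood cells, stood at 3.23 and 2.56 CPM in imCM-NF, compared with 5.57 and 4.29 CPM in imCM-AF (log2 fold change 0.78, adjusted p = 0.0375). Dock2, a regulator of leukocyte migration, rose by 1.13 (adjusted p = 0.0263), and Arhgdib fell by 0.64 on the log2 scale (adjusted p = 0.000872). Of 16 lysosomal genes 13 had a negative log2 fold change, and the median of the list was -0.20.

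Of 28 tested further macrophage genes 16 had positive and 12 negative log2 fold changes, with a median of 0.10. Only Cd53 was called higher and only Marco lower. In imCM-NF the CPM of Marco, a scavenger receptor of some macrophages, was 4.01 and 5.95, and in imCM-AF it was 0.639 and 0.756 (log2 fold change -2.84, adjusted p = 2.38e-05). The 3 most abundant of this list, Lgmn (216 CPM on average), Stab1 (148) and Ctsc (15.2), were not called, with log2 fold changes of -0.10, -0.37 and -0.03. The members and the wider list therefore held genes that stood opposite to each other.

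Markers of other cells moved with the groups too. Fibroblast markers were lower in imCM-AF for 8 of 8 genes, 4 of them called, with a summed level of 15250 and 16710 CPM in imCM-NF, compared with 10660 and 8430 CPM in imCM-AF. Endothelial markers were lower for 8 of 8, 5 of them called, with 903 and 938 CPM against 600 and 575 CPM. Cardiomyocyte markers were higher for 8 of 8, 2 of them called, Pln and Ttn, though their sums overlapped, with 37360 and 27220 CPM against 35580 and 39280 CPM. The 4 mast cell markers split. Of the 2 tested, Kit was called lower (log2 fold change -0.88, adjusted p = 0.000174, edgeR). Mcpt4 had a positive log2 fold change of 0.58 and was not called (adjusted p = 0.455, edgeR). Cpa3 averaged 0.232 CPM and Fcer1a was at 0 in all libraries. No fibroblast, endothelial or cardiomyocyte marker was at 0 in all libraries, and 5 of 6 T or natural killer cell markers were. Their part in the values of the macrophage genes was not tested.

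On the single-cell chips the macrophage genes were concentrated in a few wells. Wells with at least 500 genes were kept, 1344 on the cardiomyocytes chip and 1044 on the fibroblasts chip, and transcripts were counted as unique molecular identifiers (UMIs). Each chip is 1 library, so no test was made, and intervals cover counting error only. Each well has a deposited name, which the labels do not explain, so names are used as they stand. Wells with names other than NCM0, AF0 and NF0 equal in number the co-cultured cells that the study counts. The NCM0, AF0 and NF0 wells therefore appear to lie outside its co-cultures. There were 8 names on each chip beside the controls. The chips shared 269 well barcodes, 246 of them in kept wells of both. The 5 negative control wells of each chip held 0 UMIs of any member, and the 5 positive control wells held 1 UMI.

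On the cardiomyocytes chip 813 wells held no UMI of any member, 511 held 1 to 4 of the 10 genes, and 20 held at least 5 (1.49%, exact binomial 95% interval 0.911 to 2.29). Those 20 wells held 17493 of 20585 member UMIs, or 85.0%. The fibroblasts chip had 561 wells that held none, 436 held 1 to 4, and 47 held at least 5 (4.50%, 3.33 to 5.94), with 24529 of 26787 member UMIs (91.6%). The summed level of the 10 genes was 519 CPM (here UMIs as a share of the chip's total) on the cardiomyocytes chip and 79.5 CPM without the 20 wells. On the fibroblasts chip it was 496 CPM, and 46.1 CPM without the 47 wells. Wells at 4 and at 5 genes, next to the limit, numbered 4 and 2 on the cardiomyocytes chip and 11 and 17 on the fibroblasts chip.

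**Figure D3:**
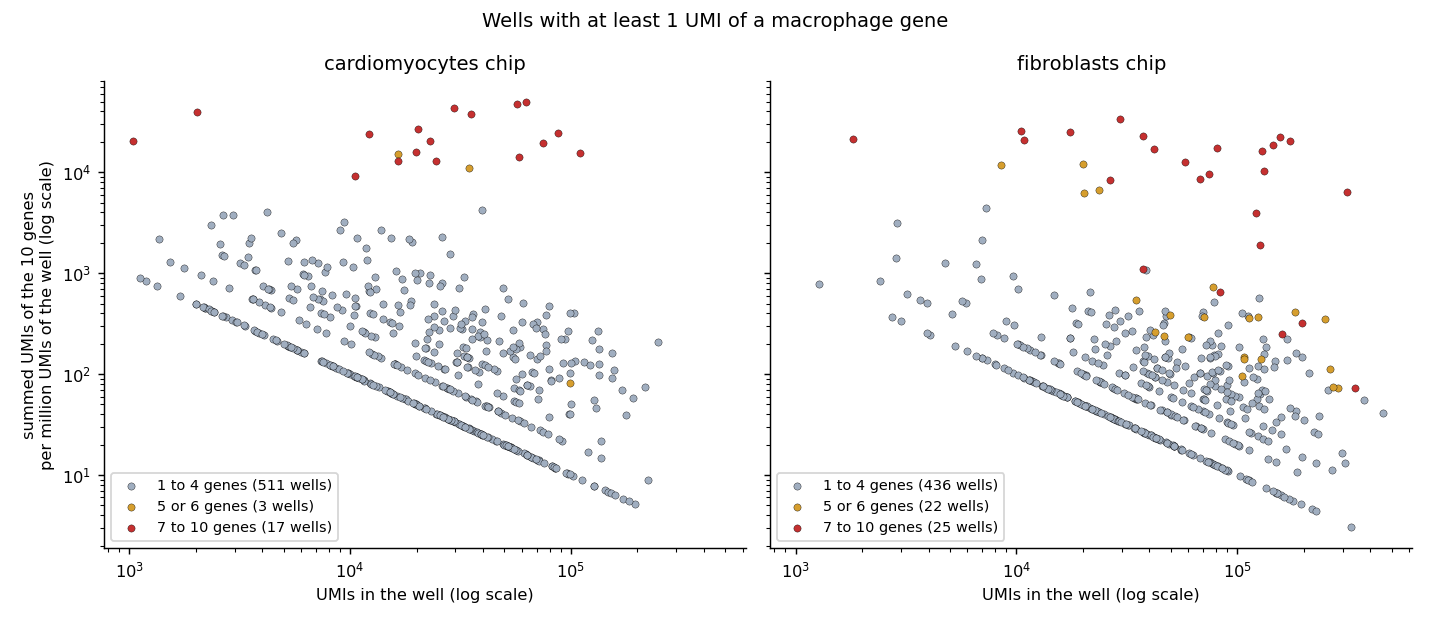
Each point is a kept well with at least 1 UMI of a macrophage gene, at its UMI total (log axis) and the summed CPM of the 10 genes in it (log axis). Grey, yellow and red wells hold 1 to 4, 5 or 6, and 7 to 10 of the genes. Wells above 5000 CPM, 19 on the cardiomyocytes chip and 22 on the fibroblasts chip, lie at low and high depths. The lowest of them is at 9232 CPM on the cardiomyocytes chip and at 6288 CPM on the fibroblasts chip. Wells of fewer than 5 genes reach 4213 and 4415 CPM, so the step is smaller on the fibroblasts chip. Yellow and red wells below 5000 CPM on the fibroblasts chip hold 34890 to 342483 UMIs, with a median of 112839.

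The number of genes seen in a well rises with its depth, which the fibroblasts chip shows. Wells of at least 5 genes there had a median of 81132 UMIs against 30713 in the other wells. After each well was thinned to 5000 UMIs, which left out 65 shallower wells, 15 of 979 wells held at least 5 members (1.53%). On the cardiomyocytes chip the thinned number was 15 of 1103 (1.36%), with 241 wells left out. The difference in share between the chips, 4.50% against 1.49%, was not seen at equal depth.

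The summed level gave a view that does not count genes. Wells with at least 5000 CPM of the 10 genes together, a limit set after the values were seen, numbered 19 on the cardiomyocytes chip (1.41%) and 22 on the fibroblasts chip (2.11%). All 41 also held at least 5 members, which the choice of limit fixed, since it lay above every well with fewer members. They ranged from 9232 to 49370 CPM on the cardiomyocytes chip and from 6288 to 33680 CPM on the fibroblasts chip, whereas wells with fewer than 5 members reached 4213 and 4415 CPM at most. The other 25 multi-member wells of the fibroblasts chip held 10 to 481 member UMIs at a median of 112839 UMIs per well, and their summed level lay between 73.0 and 3938 CPM.

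Lyz2, Cd68 and Tyrobp were seen in all 41 wells. These genes hold most of the summed level that chose the wells (66.8%, 11.5% and 13.3% of the member UMIs in the multi-member wells of the cardiomyocytes chip), so their presence was largely set by the choice. Lyz2 ranged from 2582 to 36060 CPM (median 12270) on the cardiomyocytes chip and from 2812 to 25540 CPM (median 9817) on the fibroblasts chip. Tyrobp had a median of 2751 CPM on the first chip and 2045 CPM on the second, and Cd68 one of 2920 and 1766 CPM. The surface receptors were patchier: of the 19 and 22 wells, Cd14 was seen in 17 and 20, Adgre1 in 17 and 17, Ptprc in 14 and 16, and Csf1r in 9 and 17.

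Of the C1q chains, C1qb was seen in 14 of 19 and 20 of 22 wells, C1qc in 11 and 18, and C1qa in 10 and 17. All 3 chains were seen together in 7 of 19 wells on the cardiomyocytes chip and in 17 of 22 on the fibroblasts chip, and 2 wells of each chip held none. The C1q level differed widely between these wells, with C1qb running from 0 to 1973 CPM on the first chip and from 0 to 2582 CPM on the second. A well with 0 UMIs of a chain at this depth may still hold a cell that expresses it.

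**Figure D4:**
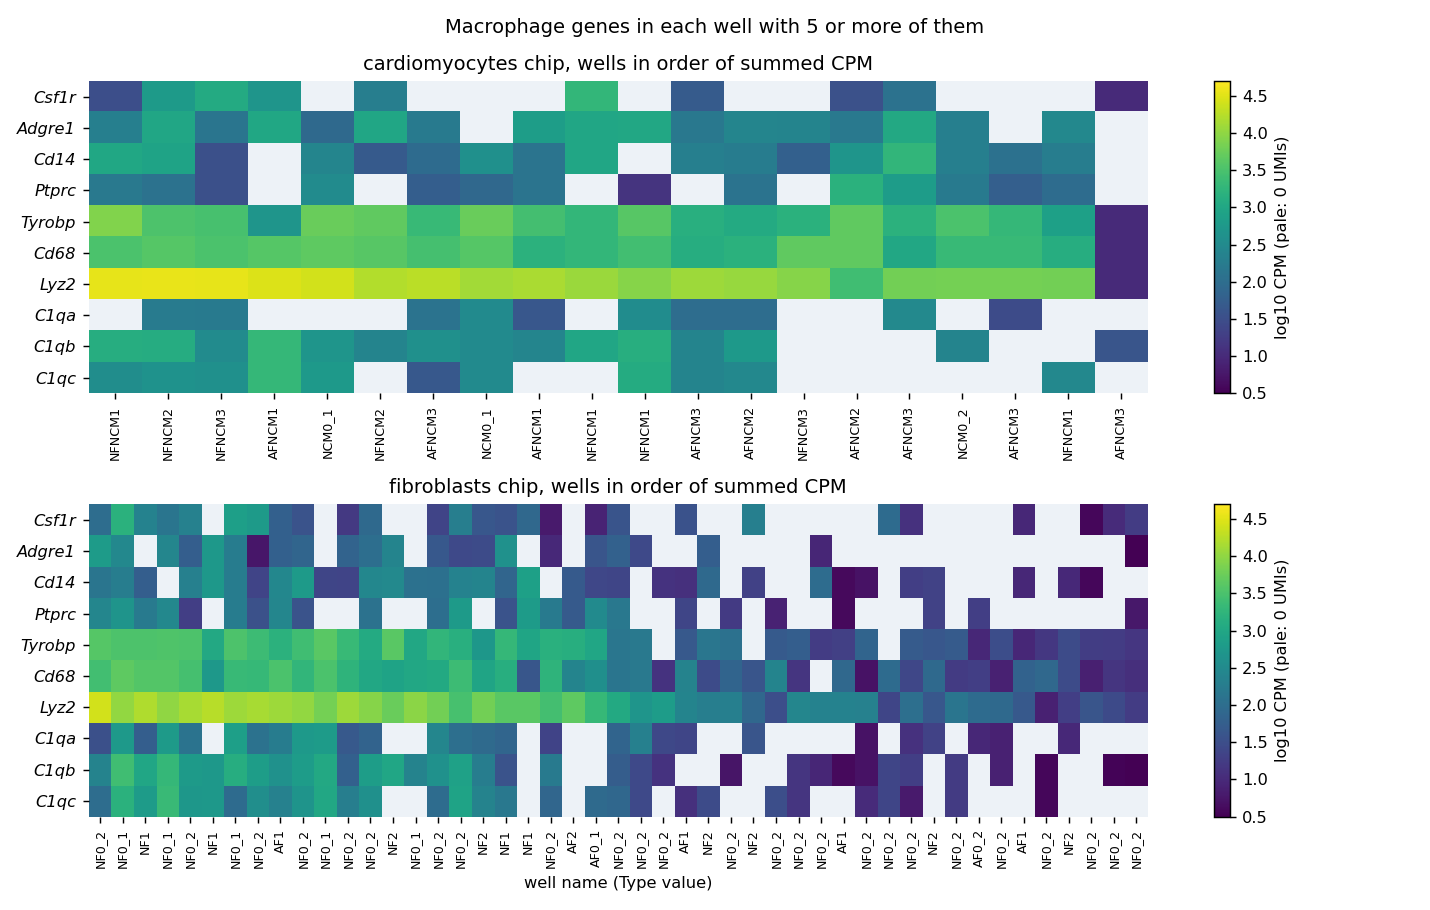
Log10 CPM of each macrophage gene (rows) in each well with at least 5 of them (columns, with their deposited names, ordered by summed CPM, highest at left). Lyz2, Cd68 and Tyrobp are bright across the left part of both panels, and the C1q chains and receptors have gaps there (pale cells, 0 UMIs). The right part of the fibroblasts panel holds mostly deep wells with few UMIs of most genes.

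Because wells were chosen by the members, each member was also looked at in wells chosen by at least 5 of the other 9. On the cardiomyocytes chip Tyrobp, Cd68 and Lyz2 were each seen in 18 of 18 such wells, and in 5.58%, 8.37% and 26.7% of the remaining wells. On the fibroblasts chip they were seen in 30 of 33, 30 of 31 and 30 of 30, and in 8.01%, 14.0% and 28.8% of the rest. C1qb was seen in 73.7% against 2.42% on the first chip and in 67.6% against 4.07% on the second. Adgre1 went from 0.830% to 84.2% and from 1.503% to 47.8%, and Ptprc from 0.680% to 70.0% and from 1.70% to 48.8%. Csf1r was seen in 47.4% against 2.72% and in 52.4% against 8.38%. By the share of its UMIs that lay in such wells it was the lowest member on both chips, at 35.2% and 48.0%. For the other members that share lay between 69.1% and 97.0%. The shares of wells in this view were not matched for depth. Multi-member wells had a median of 26996.5 UMIs on the cardiomyocytes chip, against 18498.5 in its other wells. On the fibroblasts chip these medians were 81132 and 30713 UMIs. How far depth set the shares was not tested.

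Outside the multi-member wells the members were not in the same proportions as inside. For each UMI of Tyrobp on the fibroblasts chip there were 4.21 UMIs of Lyz2 inside and 6.14 outside, 0.955 of Cd68 inside and 2.28 outside, and 0.0722 of Csf1r inside and 1.25 outside. On the cardiomyocytes chip Lyz2 stood at 5.03 inside and 5.44 outside, and Csf1r at 0.0366 inside and 0.448 outside. Csf1r therefore departed most of these 3 from its ratio to Tyrobp, with more UMIs for each UMI of Tyrobp outside.

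By well name, most levels rested on a few wells. On the cardiomyocytes chip the summed CPM of the 10 genes was 122 in AFNCM1, 508 in AFNCM2, 639 in AFNCM3, 709 in NCM0_1, 182 in NCM0_2, 1088 in NFNCM1, 776 in NFNCM2 and 315 in NFNCM3. Without the wells of at least 5 members it was 24.9, 99.0, 203, 18.6, 113, 25.6, 47.1 and 28.7 CPM in the same order. NFNCM1, the highest with all wells, was then the third lowest, and AFNCM3 came first. The number of multi-member wells was 2, 2 and 5 in the AFNCM names, 4, 2 and 2 in the NFNCM names, and 2 and 1 in the NCM0 names, and the exact intervals of their shares all overlapped.

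On the fibroblasts chip the sums were 156 CPM in AF0_1, 46.3 in AF0_2, 526 in AF1, 33.7 in AF2, 442 in NF0_1, 1202 in NF0_2, 224 in NF1 and 301 in NF2. Without the multi-member wells they were 37.9, 44.95, 63.1, 17.1, 27.8, 77.2, 25.9 and 44.2 CPM. NF0_2 held 25 of the 47 multi-member wells and 18008 of the 26787 member UMIs, and was also the deepest, with a median of 70549 UMIs per well. Thinned to 5000 UMIs it held 8 such wells of 159 (5.03%), and 9 of its wells reached 5000 CPM (5.63%). NF0_1 followed with 4 of 168 thinned wells (2.38%), and the other 6 names had at most 1 each.

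A single well often set the level of a member. For Lyz2 1 well held over 50% of the UMIs in 7 of 8 names on the cardiomyocytes chip and in 4 of 8 on the fibroblasts chip. In AF1 that well held 1795 of 2028 Lyz2 UMIs (88.5%). For Tyrobp and C1qb the number of such names was 7 on the first chip and 4 on the second, and for C1qc 6 and 6. Cd68 had 4 and 4, and Csf1r 4 and 2, the fewest over both chips. By name C1qb ranged from 1.75 to 43.1 CPM on the cardiomyocytes chip and from 0.130 to 36.0 CPM on the fibroblasts chip, where AF2 held 1 UMI and NF0_2 held 540.

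Lyz2 was seen far beyond the multi-member wells. On the cardiomyocytes chip 27.7% of all wells had a UMI of it, from 16 of 160 wells in AFNCM1 (95% interval 5.83% to 15.7%, median depth 15800 UMIs) to 50.5% in AFNCM3 (43.1 to 57.9, median depth 25116). Thinned to 5000 UMIs these shares were 4.07% and 34.2%, so their order was the same at equal depth. AFNCM2 and NCM0_2 were next, at 43.5% and 37.8%, and at 20.1% and 16.3% thinned, and the other names were at 12.5% or less thinned. By contrast C1qa was seen in at most 3.76% of the wells of any name on this chip and Ptprc in at most 2.66%.

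Lyz2 was present in 30.8% of wells of the fibroblasts chip, with 63.8% in NF0_2 (55.8 to 71.2) and 12.6% in NF1 (7.96 to 18.6, median depth 14133). Thinned shares were 24.5% and 4.48%. Without the multi-member wells Lyz2 was still seen in 26.6% of wells on the cardiomyocytes chip (median depth 18498.5 UMIs), from 8.86% in AFNCM1 to 49.2% in AFNCM3, and in 27.6% on the fibroblasts chip (30713), from 10.4% in NF1 to 57.0% in NF0_2. Whether these UMIs came from the cell in the well or from free RNA was not tested. Of the wells with exactly 1 member, 238 of 380 on the cardiomyocytes chip and 151 of 285 on the fibroblasts chip had Lyz2 as that member. Lyz1, a near copy of Lyz2, was itself counted, with 845 UMIs on the chips, and reads of the pair could have been split between them.

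Csf1r was seen in 23.4% of wells in AF0_1 (14.5 to 34.4) and 19.8% in AF0_2 (13.0 to 28.3), against 4.19% to 16.3% in the other 6 names of the chip. The intervals of both overlapped those of NF0_2 (10.9 to 22.9) and AF1 (5.48 to 16.6). By CPM over all wells AF0_1 stood at 15.6 and NF0_2 at 15.3, and AF0_2 at 8.85 and AF1 at 8.03. Without the multi-member wells Csf1r was at 15.9 and 8.97 CPM in AF0_1 and AF0_2, while Tyrobp had 4 and 11 UMIs in the same wells. Thinned to 5000 UMIs the shares were 6.58% and 5.17%, the highest of the chip, with 3.77% in NF0_2 next. These rest on 5 of 76 and 6 of 116 wells, against 6 of 159 in NF0_2. Wells with fewer than 5 members had Csf1r in 2.64% on the cardiomyocytes chip and in 7.92% on the fibroblasts chip.

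**Figure D5:**
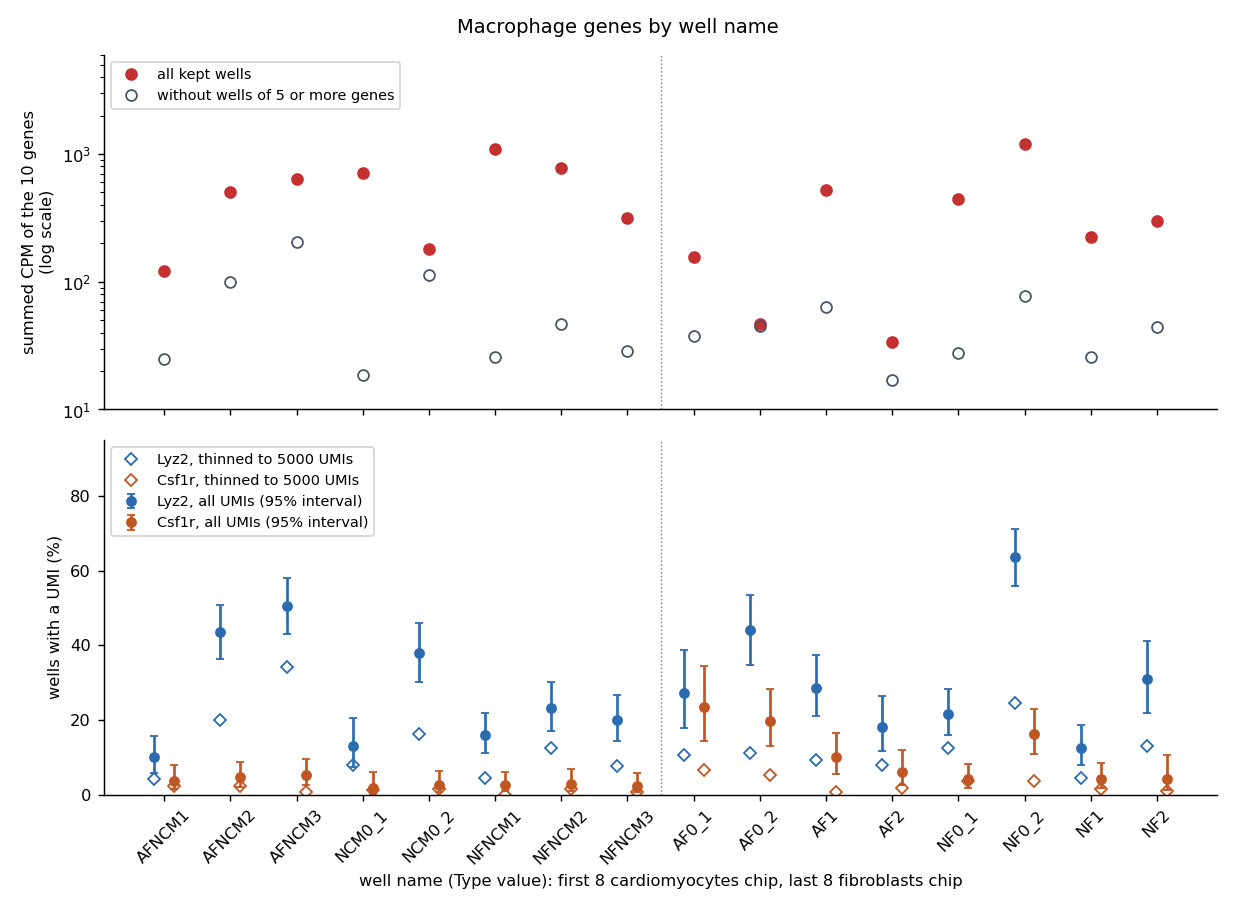
Upper panel: summed CPM of the 10 genes (log axis) by well name, in all kept wells (filled) and without wells of at least 5 genes (open). Lower panel: percent of wells with a UMI of Lyz2 (blue) and Csf1r (orange), with exact 95% binomial intervals, and after thinning to 5000 UMIs (diamonds); Lyz2 is highest in AFNCM3 and NF0_2, Csf1r in AF0_1 and AF0_2.

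Markers of other cells were read in the same wells. The 19 wells over 5000 CPM on the cardiomyocytes chip had a median of 2621 CPM of cardiomyocyte markers and a maximum of 25700 CPM. The median in wells with fewer than 5 members was 33900 CPM. For fibroblast markers the medians were 49.1 CPM in the 19 wells and 418 CPM in the wells of fewer members. On the fibroblasts chip the 22 wells had a median of 1566 CPM of fibroblast markers against 3506 CPM. The median of cardiomyocyte markers there was higher in the 22 wells, at 763 CPM against 473 CPM. By UMIs summed over wells the order was the reverse, with 1118 CPM in the 47 multi-member wells and 1983 CPM in the other wells. The other 25 multi-member wells there had 2787 CPM of fibroblast markers, closer to the rest of the chip. T or natural killer cell markers were at 0 UMIs in all multi-member wells of both chips. Granulocyte markers were seen in 6 of the 20 and 7 of the 47 multi-member wells, at 69.4 and 18.9 CPM, against 1.67 and 3.06 CPM elsewhere.

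Companion genes, which were not used to choose wells, were read beside the members. Of the 44 further macrophage genes on the cardiomyocytes chip 34 were at a higher CPM in the 20 multi-member wells than in the rest, and on the fibroblasts chip 35 of 42 were. For the receptors and kinase of the TYROBP group the numbers were 14 of 14 and 13 of 14, and for lysosomal genes 16 of 16 and 15 of 16. Over all other genes with a UMI the share that was higher was 21.8% on the cardiomyocytes chip and 30.3% on the fibroblasts chip. That share takes in genes of any abundance, and scarce genes without a UMI in the multi-member wells count as lower. The lists were not matched to it for abundance. Other lists split: the CSF1 receptor pathway had 9 of 13 and 8 of 13 genes higher, and the CD14 partners 7 of 10 and 5 of 10. Of the 12 C1 proteases, inhibitor, C1q receptors and further complement genes 4 were higher on the cardiomyocytes chip and 2 on the fibroblasts chip. The summed level of that list was 652 CPM inside and 466 CPM outside on the first chip, and 789 and 981 CPM on the second. C3 was at 6.31 CPM inside, from 1 well, and 3.68 outside on the cardiomyocytes chip, and at 10.1 and 22.7 CPM on the fibroblasts chip. Marco was at 154 CPM against 0.463 CPM on the cardiomyocytes chip, from 6 of 20 wells, and at 9.46 against 1.14 CPM on the fibroblasts chip, from 7 of 47. Lgmn and Stab1, the most abundant of the wider list in bulk, were seen in 50.6% and 29.8% of wells outside on the cardiomyocytes chip, and in 42.1% and 57.3% on the fibroblasts chip.

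The 10 genes most like the summed members over the 2388 kept wells were taken by Pearson correlation of their log-scaled levels (ln of 1 plus the UMIs scaled to a common well total), among 17218 genes. They were Ctss (0.67), Lyz1 (0.66), Fcer1g (0.66), Ms4a7 (0.66), ENSMUSG00000089672 (0.62), Plek (0.62), Msr1 (0.62), Gm49339 (0.61), Bcl2a1b (0.61) and Clec4d (0.60). The wells share 2 libraries and differ in depth, so these values are descriptions. Ctss, a lysosomal protease, was seen in 61 of the 67 multi-member wells and Fcer1g, the Fc receptor gamma chain, in 64, with 92.7% and 91.6% of their UMIs there. In bulk the CPM of Ctss was 9.70 and 9.83 in imCM-NF and 8.30 and 10.7 in imCM-AF, and that of Fcer1g was 2.23 and 3.30 against 3.92 and 2.35. Neither showed the separation of the C1q chains, and neither was called (adjusted p = 0.9 and 0.782, edgeR).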

How the data were processed

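Bulk RNA-Seq of imCMs from co-cultures and single-cell RNA-Seq of cardiomyocytes and fibroblasts, not all of them from co-cultures, were used. The bulk table deposited by the authors holds raw counts: reads were aligned to mm10 with subread, and uniquely placed reads were assigned to RefSeq genes with featureCounts. Use of strand is not given in the sources used here. The deposited chip tables hold UMI counts of Ensembl genes in each well, after STAR alignment to mm10 and assignment with featureCounts, and come with a report of read pairs. The submitters' processing notes name STAR 2.5.2b and Subread 1.4.6-p1. The Type column of the deposited report holds well names, not a measurement (unit: other).

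The 10 members and all lists were chosen with earlier results of these data known. Symbols came from RefSeq by Entrez identifier (25275 of 27179 matched) and from a table of Ensembl identifiers. The group difference (imCM-AF over imCM-NF) was fitted in R 4.3.3 with edgeR 4.0.16 (TMM, group only, quasi-likelihood). DESeq2 1.42.0 and limma 3.58.1 were alternatives. SE is the size of the log2 fold change over the square root of F. On simulated data for this comparison (200 of 13891 genes changed by 1.5 on the log2 scale) edgeR recovered 184 with 9 false calls. Libraries of a group differed by more than counting noise (chi-square per degree of freedom 8.60 in imCM-NF, 8.42 in imCM-AF).

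Single-cell values leave out mitochondrial and spike-in columns. Intervals are exact Poisson or Clopper-Pearson at 95%, for counting error only. No doublet caller was run, since the study selected wells from images. Scripts used Python 3.11.15 with scipy 1.17.1. Named genes are all members, every called gene of a companion list (the 4 with the largest change where over 4 were called), the 3 most abundant further macrophage genes, and the 10 genes most alike. A result for 1 companion gene is not reported here. The Fcer1g and Ctss bulk values follow from the last rule, and the 5000 CPM limit was set after values were seen, as were the PU box and the 4 promoters.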

Additional observations from a re-analysis of the deposited data

How the results depend on the processing

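Over 136 values of the 10 members in bulk under other settings, 0 changed direction, 5 lost a call (C1qa and C1qb) and 3 gained one (Lyz2). The number of members called, 2, was 0 with the DESeq2 Wald test and ran from 0 to 3 with 1 library left out, where C1qa and C1qb missed the filter without either imCM-NF library. The median of the members, -0.46, was -0.39 without a filter and -0.37 with filterByExpr, where Ptprc joined it, and ran from -0.18 to -0.48 with 1 library left out. Companion genes called, 11, numbered 7 with DESeq2, 3 at an absolute log2 fold change over 1, 24 by adjusted p alone, and 6 to 10 with 1 library left out. With a replicate block 2 members and 9 companion genes were called and no member changed its call. Deviations of same-numbered libraries correlated at -0.153, and with crossed pairs, added after seeing the data, 2 members and 13 companion genes were called.

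On the chips, multi-member wells numbered 40 and 97 at 3 of 10 genes (cardiomyocytes, fibroblasts chip), 25 at 7 of 10 on the fibroblasts chip, and 15 there after thinning. The summed CPM was 602 under the study's complete filter on the cardiomyocytes chip, and 79.5 and 46.1 without the multi-member wells. Wells with any member, 39.5% and 46.3%, were 21.3% and 19.7% after thinning. Bulk counts under 30 limit C1qa, C1qb, C1qc and Ptprc, and 1 library per chip leaves the single-cell values without replicates. The causes of these shifts were not tested, except that thinning removes UMIs and filters change which genes enter.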
